A study of Mus musculus with 21 samples.

Results

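Guanylate-binding protein genes were followed in left ventricular RNA of 21 male mice of the strain 129S6/SvEv. The family was taken as 10 genes, Gbp2 to Gbp11, out of 55450 genes in the table of counts, matched by their Ensembl identifiers. The family was selected on measured values, since Gbp6 and Gbp10 were higher with EMPA in R403Q mice. Their values in that comparison are therefore a description with no test.

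Wild-type mice on the control diet formed WT-CD (n = 5), and wild-type mice on the same diet with empagliflozin at 0.15 mg/g formed WT-EMPA (n = 5). Mice with 1 mutant allele of cardiac myosin heavy chain, labelled Myh6+/R404Q (R403Q), formed R403Q-CD (n = 7) and R403Q-EMPA (n = 4). EMPA is an inhibitor of the sodium-glucose cotransporter SGLT2, and the R403Q mouse is a model of hypertrophic cardiomyopathy. All hearts were taken at 12 weeks of age, and the mice had started their diets a few weeks earlier, although the sample labels give 16 weeks of treatment. Each mouse gave a single library. By the cage number in the sample labels, the 4 cages of the control diet all held both genotypes, as did 2 of the 3 cages of the EMPA diet. Because no cage held both diets, diet and cage cannot be told apart.

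GBPs are large GTPases of the dynamin superfamily that cells make in response to interferons, above all to interferon gamma. They assemble on membranes and on the surface of intracellular bacteria and parasite vacuoles, where they help to break the vacuole open and to expose bacterial lipopolysaccharide to caspase-11, which the mouse gene Casp4 encodes. Some members, such as Gbp2 and Gbp5, carry a carboxy-terminal signal for a prenyl lipid anchor. In the mouse the genes stand in a cluster on chromosome 3 and another on chromosome 5.

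The chromosome 3 cluster lies on the plus strand of GRCm38 and holds Gbp5 (chr3:142493978-142522344), Gbp7 (chr3:142530342-142550149), Gbp3 (chr3:142560026-142573209) and Gbp2 (chr3:142620602-142638008). Gbp2b (chr3:142594847-142619179), which lies among them, is not a member of the list and is given for comparison. The chromosome 5 cluster lies on the minus strand and holds Gbp8 (chr5:105014150-105139540), Gbp9 (chr5:105077630-105139539), Gbp4 (chr5:105115767-105139586), Gbp10 (chr5:105215699-105239533), Gbp6 (chr5:105270702-105293698) and Gbp11 (chr5:105323042-105346472), which is annotated as a polymorphic pseudogene. The other members are annotated as protein coding.

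Gbp6 and Gbp10 are close to identical, and this limits how reads can be assigned to either gene. Of the 1833 bases of their coding sequences, 30 differed, an identity of 98.4%. The next closest pair, Gbp8 and Gbp11, shared 93.8%, and the median over pairs from different chromosomes was 63.2%. The stretch of 90 coding bases in which Gbp6 and Gbp10 differ most is shown because a read must cross such bases to be assigned. It holds 12 of the differences, which are in capitals, and spans coding bases 1556 to 1645 of both GENCODE transcripts, counted from the start codon.
Gbp6: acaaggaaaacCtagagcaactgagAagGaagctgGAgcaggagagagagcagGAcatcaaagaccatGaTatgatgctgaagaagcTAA
Gbp10: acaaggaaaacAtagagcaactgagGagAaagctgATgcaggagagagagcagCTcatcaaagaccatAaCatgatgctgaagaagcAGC

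Of all 100-base windows of the Gbp6 transcript, 82.9% also occur in another gene, and of the Gbp10 transcript 70.9%. For the other members this share was between 0 and 10.2%. Of the 2077 such windows of Gbp6 all occur in Gm43302, an annotated gene whose exons cover parts of both genes, and part of them also occur in Gbp10. Only 53.7% of Gbp10's exonic bases and 71.0% of Gbp6's lie in no other gene, against 88.7% to 100% for the other members. Only uniquely aligned pairs were counted, and how pairs in exons shared with Gm43302 were assigned is not given in the sources used here. The reference sequence is of another strain than these mice, and how well the split between both genes holds in 129S6/SvEv was not tested. Their added reads are therefore given beside their own values.

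Promoter sequences of RefSeq (GRCm38.p6) were matched for 4 of the 10 members, Gbp2, Gbp3, Gbp5 and Gbp7, and for Gbp2b. Those of the 4 members are shown as the ones available, and whether their motifs bear on the levels measured here was not tested. The 250 bases before the first RefSeq start of each gene on the plus strand follow, with matches to 2 interferon motifs in capitals. RefSeq starts differ from the GENCODE positions given above. The stretches of Gbp2 and Gbp3 reach into the GENCODE gene, and that of Gbp5 lies inside it.
Gbp2, chr3:142620413-142620662: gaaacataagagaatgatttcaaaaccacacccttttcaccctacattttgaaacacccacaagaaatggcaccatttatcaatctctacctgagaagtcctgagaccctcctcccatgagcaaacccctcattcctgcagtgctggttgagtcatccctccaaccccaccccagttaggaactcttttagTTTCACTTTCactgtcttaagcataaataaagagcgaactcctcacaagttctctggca
Gbp3, chr3:142559794-142560043: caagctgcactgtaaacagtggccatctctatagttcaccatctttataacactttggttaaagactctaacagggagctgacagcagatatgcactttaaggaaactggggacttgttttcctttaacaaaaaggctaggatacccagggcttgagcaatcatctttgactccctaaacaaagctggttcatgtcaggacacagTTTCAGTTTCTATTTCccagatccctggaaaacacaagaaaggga
Gbp5, chr3:142496684-142496933: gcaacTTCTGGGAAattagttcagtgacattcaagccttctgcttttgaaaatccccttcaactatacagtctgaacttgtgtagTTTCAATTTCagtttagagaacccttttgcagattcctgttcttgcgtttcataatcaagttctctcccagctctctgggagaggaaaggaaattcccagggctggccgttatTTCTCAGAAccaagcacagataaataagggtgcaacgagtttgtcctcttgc
Gbp7, chr3:142530086-142530335: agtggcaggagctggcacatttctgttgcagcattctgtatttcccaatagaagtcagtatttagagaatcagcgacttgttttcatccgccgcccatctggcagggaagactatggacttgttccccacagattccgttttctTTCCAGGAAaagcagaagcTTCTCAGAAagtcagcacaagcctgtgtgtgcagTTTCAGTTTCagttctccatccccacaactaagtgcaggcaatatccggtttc

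The motifs were the core of the interferon-stimulated response element (ISRE), GAAANNGAAA, and the gamma-activated site (GAS), TTCNNNGAA, searched on both strands, and no match of one overlapped a match of the other. The ISRE core was present before the first start of all 4 members and of Gbp2b. It began 59 bases before the start of Gbp2, 165 before Gbp5, 53 before Gbp7 and 137 before Gbp2b. Gbp3 held a pair of overlapping matches, which began 45 and 39 bases before its start. GAS matches lay in Gbp5, 245 and 52 bases before the start, and in Gbp7, 106 and 87 bases before it. Over 32851 mouse promoters in windows of 300 bases, the ISRE core was present in 3.44% and a GAS match in 8.30%. The second annotated start of Gbp3 had neither.

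The libraries held 23491535 to 43539684 counts. Levels are given as CPM, the count divided by the library total after TMM scaling, which adjusts totals for differences in composition. A count of 3 corresponded to between 0.0621 and 0.127 CPM. A library labelled R403Q-CD, replicate 2, stood apart and was the deepest. Its summed cardiomyocyte markers were 33882 CPM, against 48124 to 61990 in the other 6 mice of the group. Its summed atrial markers (271 CPM, others 1.64 to 85.4), macrophage markers (345, others 191 to 249.96) and fibroblast markers (2498, others 1199 to 1918) were the highest of the group. Its summed ventricular markers (6684 CPM, others 10188 to 13600) and erythroid markers (777, others 906 to 1493) were the lowest. As a check of the labelled tissue, the ventricular marker Myl2 averaged 10454 CPM over all mice and the atrial marker Myl7 24.1 CPM. Because whole tissue was sequenced, fewer cells of a type and less RNA per cell cannot be told apart.

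Of the 10 genes, 9 passed the filter on low counts. Gbp11 did not, with 0 to 8 counts per mouse and none in 5 mice. Gbp8 passed with only 2 to 13 counts per mouse, so that its fold changes are poorly determined. The members with higher counts ran from Gbp10, with 39 to 369 counts, to Gbp6, with 865 to 2827.

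Per length, Gbp6 had the highest level of the family in WT-CD, at 10.8 ± 2.56 CPM per kilobase of exonic sequence that lies in no other gene (SD, n = 5). Gbp2 followed at 6.14 ± 1.23, and the ranges of these 2 genes overlapped between mice. Gbp2b (4.14 ± 0.589), Gbp9 (3.79 ± 0.458), Gbp7 (3.12 ± 0.287), Gbp3 (2.42 ± 0.480), Gbp10 (1.94 ± 0.990), Gbp5 (1.26 ± 0.241) and Gbp4 (0.970 ± 0.165) came next on this scale. The level of each of these overlapped that of its upper neighbour, except that all WT-CD mice had less Gbp2b than Gbp2 per kilobase. Gbp8 (0.0476 ± 0.0170) lay below Gbp4 in every mouse, and Gbp11 (0.0285 ± 0.0319) overlapped Gbp8. With the length of the whole transcript in place of unshared exonic bases, Gbp6 and Gbp2 stayed first and second and Gbp10 moved from place 7 to place 9.

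**Figure D1:**
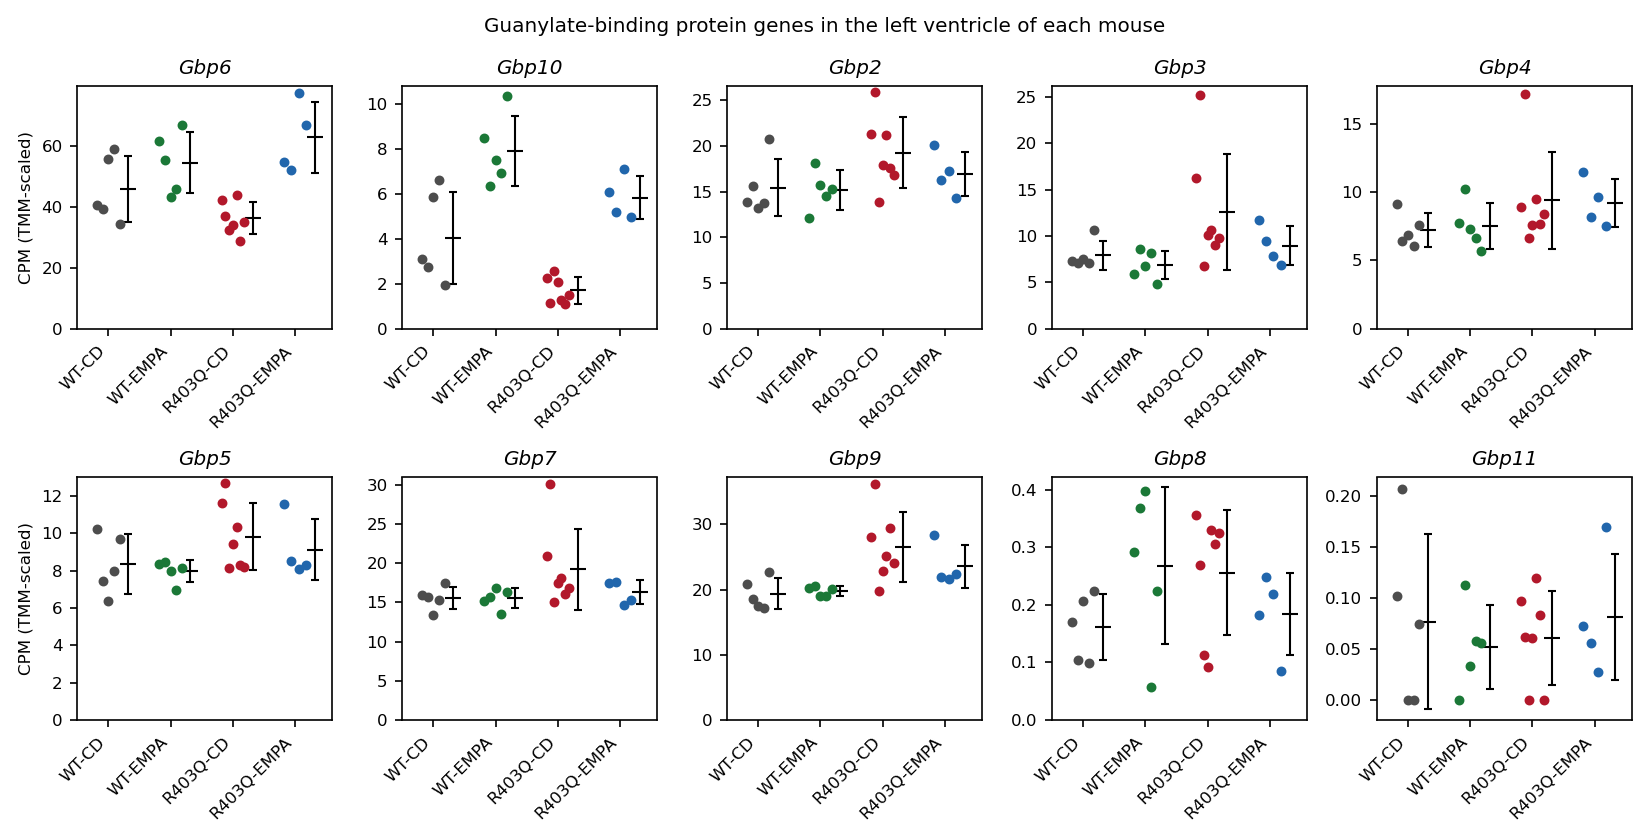
CPM (TMM-scaled, linear axis) of the 10 genes in each of the 21 mice, by group; each dot is a mouse, and the bar beside it gives the mean ± SD. Gbp10 sits at 1.08 to 2.58 CPM in R403Q-CD and at 4.97 to 7.11 in R403Q-EMPA, while the high point of R403Q-CD for Gbp3, Gbp4, Gbp7 and Gbp9 is replicate 2.

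Gbp10, a member of the chromosome 5 cluster, is the near copy of Gbp6. In the 5 WT-CD mice it stood at 3.09, 2.73, 5.85, 6.62 and 1.95 CPM. In the 5 WT-EMPA mice it stood at 8.49, 6.36, 7.5, 6.96 and 10.4 CPM. A single WT-CD mouse, replicate 4, exceeded the lowest WT-EMPA mouse. By library size alone, without TMM scaling, the groups did not overlap (highest WT-CD 6.29, lowest WT-EMPA 6.35 CPM), as in 3.73% of all tested genes on that scale.

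This contrast holds no mouse that the choice of the genes used, so it was tested. Gbp10 was 1.97-fold higher in WT-EMPA (log2 fold change 0.98 ± 0.28, SE), which did not pass the threshold (adjusted p = 0.222, edgeR). Over 17 alternatives on the reads of Gbp10 itself, its log2 fold change ran from 0.79 to 1.23 and the adjusted p from 0.0630 to 0.567. With the reads of Gbp6 and Gbp10 added up it was 0.33, with an adjusted p of 0.453. For Gbp10 alone, an exact permutation test over the 10 mice gave p = 0.0159 (two-sided, smallest possible 0.00794, not adjusted for the 9 members tested). For the other 8 members it gave between 0.206 and 0.984. This test permutes single mice, although mice of a cage shared a diet, so it does not measure the spread between cages. Of all 17309 genes tested, 0.0289% passed the threshold between WT-EMPA and WT-CD.

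In R403Q mice, the values that chose the genes were as follows. Gbp10 had a lowest level of 1.08, a median of 1.5 and a highest level of 2.58 CPM in the 7 R403Q-CD mice. The 4 R403Q-EMPA mice stood at 6.09, 5.20, 7.11 and 4.97 CPM. All R403Q-EMPA mice lay above all R403Q-CD mice, and the log2 fold change was 1.80 ± 0.28 (SE), or 3.47-fold. Without R403Q-CD replicate 2 it was 1.71 ± 0.28.

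Gbp6 shifted in the same direction by less. Its levels were 40.5, 39.4, 55.6, 58.9 and 34.3 CPM in WT-CD, and 61.6, 55.3, 43.1, 45.7 and 66.9 CPM in WT-EMPA. In R403Q-CD the lowest, median and highest levels were 28.9, 35.1 and 43.9 CPM, and the R403Q-EMPA mice stood at 54.7, 52.2, 77.3 and 66.8 CPM. The 2 wild-type groups overlapped and the 2 R403Q groups did not. The log2 fold change between the R403Q groups was 0.79 ± 0.15 (SE), with no test. Between the wild-type groups, Gbp6 was 1.19-fold higher with EMPA, which did not pass the threshold (log2 0.25 ± 0.16, adjusted p = 0.567, edgeR).

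No other member that passed the filter was higher on average in R403Q-EMPA than in R403Q-CD. The other 7 had log2 fold changes between -0.50 (Gbp3) and -0.04 (Gbp4), with a median of -0.18, beside a median of -0.004 over all tested genes. Without R403Q-CD replicate 2, Gbp4 turned to 0.18 ± 0.15, Gbp3 stood at -0.23, Gbp2 and Gbp7 at -0.10, Gbp9 at -0.08, Gbp5 at -0.04 and Gbp8 at -0.42. Gbp6 and Gbp10 were the only members whose groups did not overlap, which the choice of the genes fixed. Among all tested genes, 1.62% had groups that did not overlap and 0.0116% passed the threshold in this comparison.

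How far the log2 fold change with EMPA in R403Q mice exceeded that in wild-type mice rests on the same mice and was not tested. This excess came to 0.82 ± 0.40 for Gbp10 and 0.54 ± 0.22 for Gbp6 on the log2 scale (SE). For the other members it lay between -1.14 ± 0.62 (Gbp8) and -0.04 ± 0.20 (Gbp5).

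**Figure D2:**
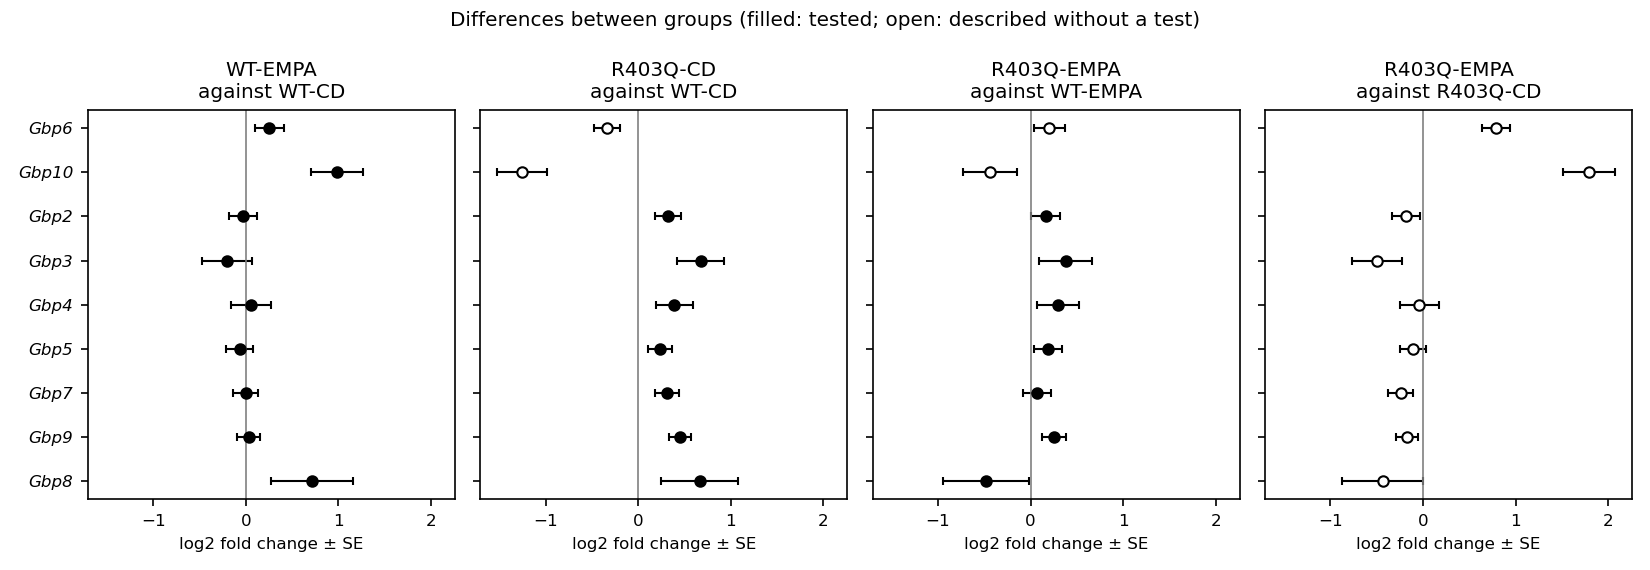
Log2 fold change ± SE of the 9 members that passed the filter in each of 4 comparisons; filled points were tested and open points are described without a test. Gbp10 lies at 0.98 and 1.80 in the comparisons of diet and at -1.26 and -0.44 in those of genotype, while Gbp2, Gbp3, Gbp4, Gbp5, Gbp7 and Gbp9 lie between 0.24 and 0.67 for R403Q-CD against WT-CD.

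Between genotypes on the control diet, Gbp10 was lower in R403Q-CD than in WT-CD, by a log2 fold change of -1.26 ± 0.27 (SE), and Gbp6 by -0.34 ± 0.14. Both are given without a test, since the R403Q-CD mice took part in the choice. Without R403Q-CD replicate 2 the values were -1.17 ± 0.28 and -0.35 ± 0.15. Over the alternatives on the reads of Gbp10 itself, its log2 fold change ran from -1.44 to -0.72. Within each of the 4 control diet cages, the R403Q mice had less Gbp10 than their wild-type cage mates. The log2 ratio of the means ran from -0.44 in cage 68657 to -1.94 in cage 68660. Gbp6 was lower in R403Q mice in 2 of these cages and slightly higher in the other 2.

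On the EMPA diet, Gbp10 was again lower in R403Q mice, by a log2 fold change of -0.44 ± 0.29 (SE), and in both cages with both genotypes (-0.30 and -0.78). Gbp6 differed by 0.20 ± 0.16. With the reads of Gbp6 and Gbp10 added up, the difference on this diet was 0.14 ± 0.17.

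The share of Gbp10 among the counts of both genes followed the same order. It was 7.71 ± 2.03% in WT-CD (SD, n = 5), 12.8 ± 1.68% in WT-EMPA (n = 5), 4.53 ± 1.65% in R403Q-CD (n = 7) and 8.60 ± 1.30% in R403Q-EMPA (n = 4). In every cage that held both genotypes, each R403Q mouse had a lower share than each wild-type mouse. The shares are a description without a test, since the counts of both genes in R403Q mice took part in the choice. With the reads of both genes added up, the log2 fold changes were 0.85 ± 0.15 for R403Q-EMPA against R403Q-CD, 0.33 ± 0.16 for WT-EMPA against WT-CD and -0.39 ± 0.15 for R403Q-CD against WT-CD. The direction of each was that of Gbp6, which holds most of the reads.

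**Figure D3:**
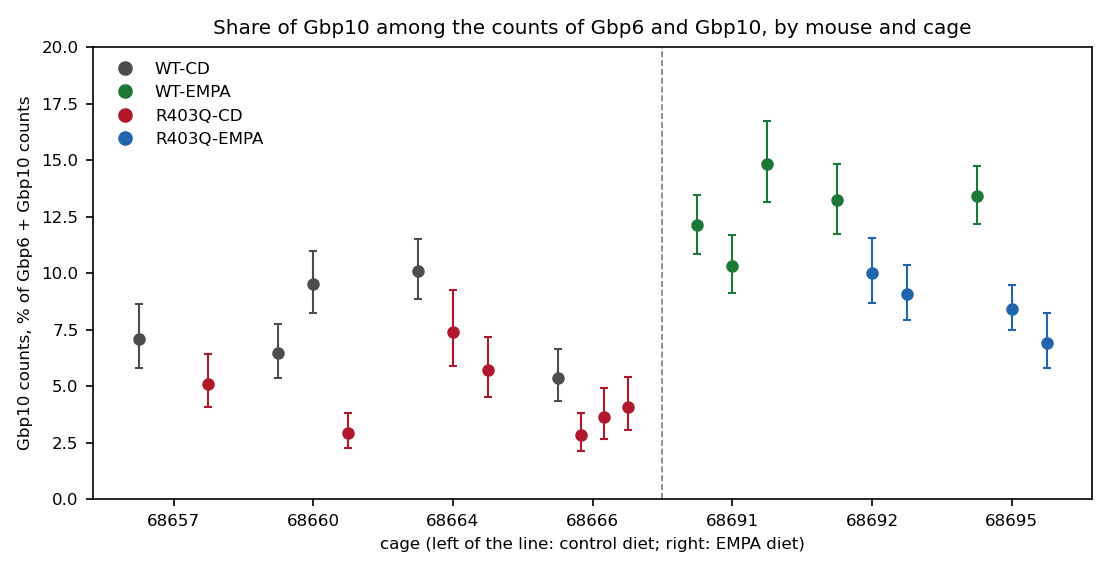
Gbp10 counts as a percentage of the counts of Gbp6 and Gbp10 together, by mouse and cage; bars are 95% Wilson binomial intervals, which cover counting error only. In the cages with both genotypes, R403Q mice (red and blue) sit below wild-type mice (grey and green), and the EMPA cages sit higher than the control cages within each genotype on average.

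The other 7 members that passed the filter were higher on average in R403Q-CD than in WT-CD. All 7 had positive log2 fold changes, between 0.24 (Gbp5) and 0.67 (Gbp3), with a median of 0.39, beside a median of 0.01 over all tested genes. None passed the threshold (adjusted p between 0.0504 and 0.362, edgeR), and 4 had an unadjusted p under 0.05. Of all genes, 1.44% passed and 20.9% had an unadjusted p under 0.05. DESeq2 called 1 of the 7, Gbp9, and 5.6% of all genes it tested. The 7 R403Q-CD mice are those that the choice of the genes used for Gbp6 and Gbp10.

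Gbp9, the member with the highest counts after Gbp6, came nearest to the threshold. It stood at 20.9, 18.6, 17.5, 17.2 and 22.7 CPM in WT-CD, and at 19.9 (lowest), 25.1 (median) and 36.2 (highest) CPM in R403Q-CD. Of the 7 R403Q-CD mice, 6 exceeded every WT-CD mouse. Its log2 fold change of 0.45 (SE 0.12) had an adjusted p of 0.0504 in edgeR. Over 21 alternatives the adjusted p ran from 0.0111 to 0.150 and fell under the threshold in 8. Without R403Q-CD replicate 2 it was 0.0636, with a log2 fold change of 0.35 ± 0.10. Gbp9 was higher in R403Q mice within all 4 cages, by a log2 ratio of 0.21 to 1.0.

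Gbp3 and Gbp8 had close log2 fold changes, and that of Gbp8 was 0.66 ± 0.41 (SE, adjusted p = 0.362, edgeR) and 0.65 ± 0.44 without R403Q-CD replicate 2. Gbp3, of the chromosome 3 cluster, stood at 7.26, 7.03, 7.47, 7.02 and 10.7 CPM in WT-CD. In R403Q-CD it ran from 6.80 through a median of 10.1 to 25.2 CPM, so the groups overlapped. The log2 fold change of Gbp3, 0.67 ± 0.25 (SE), did not pass the threshold (adjusted p = 0.140, edgeR) and was 0.40 ± 0.19 without R403Q-CD replicate 2 (adjusted p = 0.288). In cage 68666 Gbp3 was lower in R403Q mice, by a log2 ratio of -0.12.

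For the rest, the means of the WT-CD and R403Q-CD mice were 15.4 ± 3.10 and 19.2 ± 3.90 CPM for Gbp2, 15.6 ± 1.43 and 19.2 ± 5.14 for Gbp7, 7.21 ± 1.22 and 9.40 ± 3.55 for Gbp4, and 8.34 ± 1.6 and 9.81 ± 1.81 for Gbp5 (SD, n = 5 and 7). Gbp2b, outside the list, stood at 11.7 ± 1.66 and 15.5 ± 2.67 CPM (log2 0.41 ± 0.12, SE, adjusted p = 0.0709, edgeR), and DESeq2 called it higher in R403Q-CD. In none of these 5 genes were the groups apart from each other. No member had groups without overlap in this comparison, beside 2.12% of all tested genes. The log2 fold changes were 0.39 for Gbp4, 0.31 for Gbp7 and 0.24 for Gbp5, and 0.16 for each of them without R403Q-CD replicate 2. Without this library the median over the 7 members was 0.23 and the adjusted p ran from 0.0636 to 0.593.

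On the EMPA diet, log2 fold changes of the same 7 members for R403Q-EMPA against WT-EMPA ran from -0.48 (Gbp8) to 0.38 (Gbp3), with a median of 0.19, beside a median of 0.01 over all tested genes. Whether the difference between genotypes changed with diet was not tested. None passed the threshold (adjusted p between 0.377 and 0.854, edgeR), none had an unadjusted p under 0.05, and DESeq2 called 0. Of all genes, 0.0578% passed in edgeR, 14.7% had an unadjusted p under 0.05 and 1.86% passed in DESeq2. Gbp9 stood at 20.3, 20.6, 19.0, 19.0 and 20.2 CPM in WT-EMPA and at 28.4, 21.9, 21.6 and 22.4 CPM in R403Q-EMPA. These groups did not overlap, as in 6.77% of all tested genes.

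In wild-type mice, the log2 fold changes for WT-EMPA against WT-CD lay between -0.20 (Gbp3) and 0.06 (Gbp4) for 6 of these 7 members. Gbp8 stood at 0.71 ± 0.44 (SE) on 2 to 13 counts per mouse. Of the 9 members tested none passed the threshold, 1 (Gbp10) had an unadjusted p under 0.05 and DESeq2 called 0. Over all genes these shares were 0.0289%, 11% and 0.752%. All 9 had overlapping groups, whereas 3.45% of all tested genes had groups that did not overlap. Gbp11 had means of 0.0768 CPM in WT-CD and 0.0520 in WT-EMPA, on 0 to 8 and 0 to 4 counts per mouse. The WT-CD mean lay near the level of 3 counts and the WT-EMPA mean under it.

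Across mice, 6 of the members moved together. Gbp6 and Gbp10, which were chosen for a shared shift with EMPA, are described after them. Gbp8 had Pearson's r between -0.17 and 0.41 with the other members that passed the filter, on 2 to 13 counts per mouse. Among Gbp2, Gbp3, Gbp4, Gbp5, Gbp7 and Gbp9, all 15 pairs were positively correlated over the 21 mice, with Pearson's r of 0.71 to 0.86 and Spearman's rho of 0.49 to 0.85 on log2 CPM. The adjusted permutation p over 36 pairs ran from 9e-05 to 0.00418 for r and from 0.00036 to 0.046 for rho. Without the 2 mice farthest from the median r ran from 0.36 to 0.79. It ran from 0.75 to 0.96 among the 12 mice on the control diet and from 0.26 to 0.92 among the 9 on EMPA. Mice of a cage and genotype share their surroundings, so that these are not fully independent points.

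Gbp10 ran against this group, with r between -0.64 and -0.37 and rho between -0.66 and -0.31 for its 6 pairs. These are given without a test, since Gbp6 and Gbp10 were chosen on values of 11 of these mice. Without the 2 farthest mice r lay between -0.57 and -0.29, and with the group means removed between -0.59 and -0.30. Gbp6 gave r between -0.40 and -0.08 and rho between -0.41 and -0.05 with the same 6 genes. With the group means removed, r of Gbp6 with them lay between -0.19 and -0.01. Gbp6 and Gbp10 had r = 0.81 and rho = 0.78 with each other. The correlation of this pair was 0.60 with the group means removed, 0.76 on the control diet and 0.13 on EMPA.

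**Figure D4:**
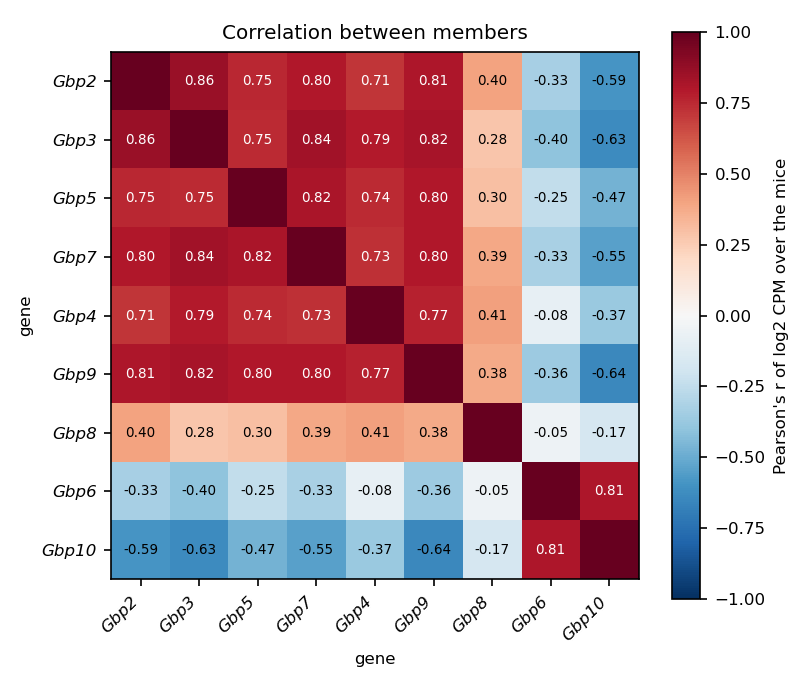
Pearson's r of log2 CPM over 21 mice for each pair of the 9 members that passed the filter; red is positive and blue is negative. The block of Gbp2, Gbp3, Gbp5, Gbp7, Gbp4 and Gbp9 holds values of 0.71 to 0.86, Gbp6 and Gbp10 have 0.81 with each other, and Gbp10 has -0.64 to -0.37 with the block.

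The 5 genes outside the family most like the mean of the 9 members were Parp9, Tgtp1, Trpv4, Tgtp2 and Ifit1, by Spearman's rho of 0.81, 0.79, 0.78, 0.78 and 0.78 over 21 mice among 17299 genes. Tgtp1 and Tgtp2 belong to the immunity-related GTPases, Ifit1 and Parp9 are interferon-induced, and Trpv4 encodes a calcium channel. With the group means removed, Ifit1 came first by Pearson's r (0.93), Parp9 had place 5 (0.88) and Trpv4 place 405 (0.61). Ifit1 stood at 4.50 ± 1.71 CPM in WT-CD, 4.38 ± 0.934 in WT-EMPA, 10.96 ± 7.94 in R403Q-CD and 5.86 ± 1.54 in R403Q-EMPA (SD). Its highest value, 26.4 CPM, was that of R403Q-CD replicate 2, and likeness without this mouse was not examined.

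The pathway around the GBPs was read through 9 gene lists with 71 genes in all, of which 67 could be tested. Between R403Q-CD and WT-CD, 1 gene passed in edgeR, 36 had an unadjusted p under 0.05, and DESeq2 called 19, of which 18 were higher and 1, Fntb, lower. Over all genes tested, these shares were 1.44%, 20.9% and 5.6%. The gene called by edgeR was Casp4, the caspase that senses the lipopolysaccharide GBPs expose. Casp4 averaged 2.54 ± 0.448 CPM in the 5 WT-CD mice and 4.47 ± 1.24 CPM in the 7 R403Q-CD mice (SD). Its log2 fold change was 0.82 (SE 0.18) with an adjusted p of 0.0302 in edgeR, and 0.72 (SE 0.18) with an adjusted p of 0.0434 without R403Q-CD replicate 2. Fitted on the 2 groups alone, no list gene passed.

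The transcript of the ligand was near absent, as Ifng had at most 1 count in any mouse, and the secreted protein was not part of these data. Of its receptor genes, Ifngr2 differed by a log2 fold change of -0.24 and Ifngr1 by 0.16 for R403Q-CD against WT-CD, and neither passed in edgeR or DESeq2. In the relay from receptor to nucleus, 11 of 13 genes had positive log2 fold changes (median 0.27, and 0.14 without R403Q-CD replicate 2). None passed in edgeR, and DESeq2 called Irf8 higher. Jak1, the kinase bound to the receptor and the most abundant of the list, stood at 0.04. Of the immunity-related GTPases, which act beside GBPs on vacuoles, 11 of 13 had positive log2 fold changes (median 0.31, and 0.20 without R403Q-CD replicate 2). None passed in edgeR, and DESeq2 called Irgm1 and Ifi47 higher. The most abundant of them, Iigp1, stood at -0.19.

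Both testable genes of the other dynamin-like GTPases, Mx1 and Mx2, had positive log2 fold changes (median 1.09, and 0.66 without R403Q-CD replicate 2), and neither passed in edgeR or DESeq2. All 3 prenyl transferase subunits, which attach the lipid anchor, had negative ones (median -0.07). None of the 3 passed in edgeR, DESeq2 called Fntb lower, and Fnta, the most abundant, stood at -0.07. All 8 genes of caspases and inflammasomes had positive log2 fold changes (median 0.66), with Casp4 alone past the threshold in edgeR and 4 genes in DESeq2. Of the interferon gamma induced genes outside the GTPases, 11 of 12 had positive values (median 0.17), with Ly6a at 0.25. None of these passed in edgeR, and DESeq2 called Psmb10 higher. All 13 type I interferon induced genes had positive log2 fold changes (median 0.85), and none passed in edgeR while DESeq2 called 9. The most abundant, Xaf1, stood at 0.40.

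R403Q-CD replicate 2 had the highest sum of the type I list, 342 CPM, against 114 to 192 in the other 6 mice and 91.2 to 136 in WT-CD. Without it the median of that list was 0.47 and that of the caspase list 0.51. This was also the mouse with the most Gbp2, Gbp3, Gbp4, Gbp5, Gbp7 and Gbp9.

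For WT-EMPA against WT-CD none of 67 passed in edgeR, 7 had an unadjusted p under 0.05, and DESeq2 called 1, Fnta, which was lower, beside 0.0289%, 11% and 0.752% of all genes. For R403Q-EMPA against WT-EMPA none passed in edgeR, 10 had an unadjusted p under 0.05, and DESeq2 called 1, Pycard, which was higher, beside 0.0578%, 14.7% and 1.86% of all genes. Genes named here only as DESeq2 calls were picked after their values were seen. For R403Q-EMPA against R403Q-CD, the comparison that chose the GBPs and thus without a test, 12 of 13 type I genes had negative log2 fold changes (median -0.60), as did 10 of 13 immunity-related GTPases (median -0.21) and 7 of 8 caspase and inflammasome genes (median -0.16). Of the interferon gamma induced genes outside the GTPases, 6 had positive and 6 negative values, and of the relay genes 4 and 9. Both Mx genes and both receptor genes had negative values (medians -0.72 and -0.14), as did 2 of 3 prenyl transferase subunits. The medians of the Mx and receptor genes were -0.30 and -0.14 without R403Q-CD replicate 2. Without R403Q-CD replicate 2, values were negative for 12 of 13 type I genes (median -0.27), 8 of the 12 immunity-related GTPases then tested (-0.03), 6 of 8 caspase and inflammasome genes (-0.12) and 7 of 13 relay genes (-0.04). They were positive for 8 of 12 interferon gamma induced genes (median 0.07).

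All 6 macrophage markers had positive log2 fold changes for R403Q against wild-type mice on either diet, with 2 past the threshold in edgeR on the control diet and none on EMPA (lowest adjusted p 0.0854). DESeq2 called 5 and 3. Summed over 6 macrophage markers, levels ran from 138 to 195 CPM in WT-CD, 113 to 188 in WT-EMPA, 191 to 345 in R403Q-CD and 217 to 279 in R403Q-EMPA, with no marker at 0 throughout. Adgre1 (log2 0.67 ± 0.16, adjusted p = 0.0351) and Csf1r (0.45 ± 0.10, adjusted p = 0.0254) were called higher in R403Q-CD than in WT-CD by edgeR. Both also passed without R403Q-CD replicate 2 (adjusted p = 0.0202 and 0.0313). Endothelial markers summed to 644 to 759, 665 to 784, 728 to 780 and 757 to 912 CPM in the same 4 groups, and none of the 6 passed. All 4 fibroblast markers had positive log2 fold changes for R403Q-CD against WT-CD (median 0.38), and none passed in edgeR while DESeq2 called Dcn. Their sum ran from 882 to 1412 CPM in WT-CD and from 1199 to 2498 in R403Q-CD. All 5 cardiomyocyte markers had negative log2 fold changes in that comparison (median -0.18) and none passed in either tool. Their sum ran from 61537 to 70032 CPM in WT-CD and from 33882 to 61990 in R403Q-CD. T or NK cell markers summed to at most 2.14 CPM in any mouse. The part of these cell types in the levels of Gbp9 and its group was not tested.

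All 3 erythroid markers had positive log2 fold changes with EMPA in either genotype, with medians of 0.64 in wild-type and 0.63 in R403Q mice. Their sum ran from 625 to 1123 CPM in WT-CD, 1103 to 1769 in WT-EMPA, 777 to 1493 in R403Q-CD and 1074 to 2349 in R403Q-EMPA. The ranges overlapped between diets in either genotype, and none of the 3 passed in edgeR. DESeq2 called 1 of them, Alas2, higher in WT-EMPA than in WT-CD. All 3 smooth muscle markers had negative log2 fold changes with EMPA in either genotype, with medians of -0.38 in wild-type and -0.72 in R403Q mice (-0.80 without R403Q-CD replicate 2), and none of the 3 passed in edgeR or DESeq2 in wild-type mice. Their sum ran from 202 to 625 CPM in WT-CD, 227 to 382 in WT-EMPA, 297 to 828 in R403Q-CD and 188 to 417 in R403Q-EMPA. Of the 6 endothelial markers, 3 had positive values in wild-type and 5 in R403Q mice, with medians of 0.02 and 0.04. Pecam1, Cdh5, Tie1 and Egfl7 lay between -0.03 and 0.05 in wild-type and between -0.04 and 0.05 in R403Q mice. Of the same 6 markers, picked after the values were seen, Cldn5 differed by 0.48 in wild-type (adjusted p = 0.264, edgeR) and 0.61 in R403Q mice with EMPA, and Kdr by 0.30 (adjusted p = 0.318) and 0.40. All 3 atrial markers had negative values in wild-type and 2 of 3 in R403Q mice. Their medians were -1.39 and -3.40, the latter -2.07 without R403Q-CD replicate 2. Their sum varied widely, from 4.16 to 141 CPM in WT-CD alone. B cell markers summed to 0.571 to 0.860 CPM in WT-CD and 0.954 to 1.61 in WT-EMPA, with overlap between the R403Q groups. No atrial or B cell marker passed in edgeR or DESeq2 in wild-type mice. The part of these cell types in the level of Gbp10 was not tested.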

How the data were processed

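Members and gene lists were chosen with earlier results of these data known. Per the labels and the study's methods, polyadenylated RNA of the left ventricle was sequenced as read pairs and aligned to mm10 with STAR 2.6.0c, and the authors made the deposited counts per Ensembl gene with featureCounts (Subread 1.6.2) from uniquely aligned pairs, without mitochondrial genes. Libraries held 23491535 to 43539684 counts. The deposited log2 values are the authors' DESeq2 1.32.0 variance-stabilized counts and served only as an alternative. Symbols and positions came from GENCODE on GRCm38, which named 55104 of the 55450 genes. The authors counted on an Ensembl annotation of another release, so that exon overlaps, shared windows and CPM per kilobase given here may differ from those of the counted gene models.

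Counts were analysed with edgeR 4.0.16 in R 4.3.3: filterByExpr (minimum count 10), TMM scaling and the quasi-likelihood F test over 17309 genes in 1 model of 4 groups, with a Benjamini-Hochberg adjusted p under 0.05 as the threshold. SE was derived from the fold change and its F. Log2 CPM used a prior count of 2. Permutation tests used scipy 1.17.1, exactly for single genes and with 100000 permutations for correlations. The scripts were tested on simulated counts. Replicate numbers follow the order of samples and pair no mice, and p-values measure the spread between mice. The highest rank correlation of counts between any 2 libraries was 0.960, so no library appeared in duplicate.

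Named genes were all members, Gbp2b, list genes past the threshold (otherwise the most abundant of each list) and the 5 genes most like the members. Alternatives were DESeq2 1.42.0, other size factors, library size alone, no filter, limma 3.58.1 on the deposited log2 values, voom with cage as a random effect, cage as a factor, fits of 2 groups, added reads of Gbp6 and Gbp10, and each mouse left out.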

Additional observations from a re-analysis of the deposited data

Results flagged for a closer look

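In 5 of 36 groups examined (9 members in 4 groups), a single mouse lay far from the others of its group by Dixon's gap test, which chance alone would flag in about 1 in 20 groups. In R403Q-CD, replicate 2 had 17.2 CPM of Gbp4 beside 6.65 to 9.50 in the other 6 mice, and 30.1 CPM of Gbp7 beside 15.0 to 20.9. In R403Q-EMPA, replicate 1 had 11.6 CPM of Gbp5 beside 8.09 to 8.53 in the other 3 mice, and 28.4 CPM of Gbp9 beside 21.6 to 22.4. In WT-CD, replicate 5 had 10.7 CPM of Gbp3 beside 7.02 to 7.47 in the other 4 mice. All 5 values were high ones.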

How the results depend on the processing

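Of 432 alternatives for 23 log2 fold changes with a test, 411 kept the direction and the side of the threshold. In 8, all of Gbp9 for R403Q-CD against WT-CD, the adjusted p came under the threshold, and 13 changed sign. Signs changed for members near 0 in WT-EMPA against WT-CD: leaving out 1 mouse gave -0.10 to 0.10 for Gbp2, -0.078 to 0.15 for Gbp4, -0.15 to 0.017 for Gbp5, -0.051 to 0.043 for Gbp7 and -0.0093 to 0.094 for Gbp9, and the deposited log2 values gave 0.000508 for Gbp7. With cage as a factor Gbp8 stood at 0.44 for R403Q-EMPA against WT-EMPA. For R403Q-CD against WT-CD, 1 member passed with DESeq2, RLE factors, library size alone or voom, and 0 to 1 with a mouse left out (1 without WT-CD replicate 5 or R403Q-CD replicate 3, 4 or 7). List genes past the threshold there numbered 19 with DESeq2, 6 by library size, 3 without a filter and 0 in a fit of 2 groups, and DESeq2 called 1 in each of the other tested comparisons. Gbp10 for R403Q-EMPA against R403Q-CD was 1.17 on the deposited log2 values and 0.85 with reads added up. Over all genes, R403Q-CD against WT-CD gave 250 calls, and 970 with DESeq2, 482 with voom, 28 in a fit of 2 groups, 19 with cage as a factor and 31 to 1045 with a mouse left out. WT-EMPA against WT-CD gave 5 calls, and 112 with DESeq2, 0 by library size, 1 with voom and 0 to 7 with a mouse left out. R403Q-EMPA against WT-EMPA gave 10, and 299 with DESeq2, 123 in a fit of 2 groups, 6 with cage as a factor and 1 to 64 with a mouse left out. R403Q-EMPA against R403Q-CD gave 2, and 157 with DESeq2, 5 by library size, 0 in a fit of 2 groups, 1 with reads added up and 0 to 12 with a mouse left out. The causes were not tested. Replicate numbers follow the order of samples and were not used as a block.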

Other observations

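The genes outside the family nearest to Gbp10 across the 21 mice were Gm9899, Akap1, Srebf1, Mrs2 and Speg, by Spearman's rho of 0.94, 0.90, 0.90, 0.90 and 0.90 among 17299 genes. They were picked after the values were seen, and the shift with diet that chose Gbp10 enters each rho. Gm9899 stood at 16.9 ± 1.84 CPM in WT-CD, 20.4 ± 3.26 in WT-EMPA, 12.1 ± 1.84 in R403Q-CD and 16.8 ± 0.496 in R403Q-EMPA (SD), the same order of groups as Gbp10 apart from WT-CD and R403Q-EMPA, which lay close together. With the group means removed, Pearson's r with Gbp10 was 0.69 for Gm9899, 0.53 for Akap1, which anchors protein kinase A to mitochondria, and 0.35 for Srebf1, a transcription factor of lipid synthesis. None of these belongs to the lists around the GBPs.

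For Gbp6 the nearest genes were Cep85, Lama5, Csdc2, Bcl2l11 and Sms-ps, by rho of 0.88, 0.86, 0.84, 0.84 and 0.84. The difference between R403Q groups on which Gbp6 was chosen enters each of these values. With the group means removed, Pearson's r was 0.68, 0.70, 0.79, 0.29 and 0.57. Cep85, a centrosome protein, stood at 58.6 ± 7.69 CPM in WT-CD, 64.4 ± 8.88 in WT-EMPA, 46.4 ± 6.22 in R403Q-CD and 68.4 ± 11.5 in R403Q-EMPA (SD).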
